A study of Caenorhabditis elegans with 24 samples.

Results

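RNA polymerase I (Pol I) transcribes the ribosomal RNA precursor in the nucleolus, and its activity sets how many ribosomes a cell can build. In the strain called Pol I-AID, an auxin-inducible degron fused to GFP was inserted at rpoa-2, which encodes the second largest Pol I subunit, so that auxin and the plant F-box protein TIR1 send the tagged subunit to the proteasome. The C. elegans intestine is a tube of large polyploid cells that digests food, stores fat, detoxifies and secretes yolk proteins in adults, and it therefore makes much protein for export. The comparison described here is the response of dissected intestines to 12 h of auxin: 4 Pol I-AID libraries were set against 4 TIR1 libraries, chosen by their labels as 8 of the 24 libraries in the series.

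All animals were day 1 adults fed OP50 bacteria at 20 °C, and both groups were on 1 mM auxin for 12 h. Both strains carried ieSi57, which drives TIR1::mRuby from the eft-3 promoter, and the TIR1 strain carried no degron tag. The eft-3 promoter is active in many somatic tissues, so depletion was not restricted to the intestine. Pol I-AID additionally carried qzIs15 (the degron and GFP at rpoa-2), and the TIR1 genotype listed unc-119(ed3) III. Replicate 1 came from strains outcrossed 1 time (DCW143 for TIR1, DCW180 for Pol I-AID) and replicates 2 to 4 from strains outcrossed 3 times (DCW448 and DCW447). Each library pooled intestines of several animals. There was no group kept 12 h without auxin, so auxin itself is shared by both strains, and the 0 h libraries of both strains (0 mM) serve as the state before treatment. In bulk RNA, fewer cells of a type and less RNA per cell cannot be told apart.

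The 8 libraries held 17.1 to 26.2 M counts, of which 67.6 to 77.5% were taken by the 6 vitellogenin (yolk protein) genes, and between 8501 and 9654 genes were detected. Levels of intestinal markers varied (the gut transcription factor gene elt-7 averaged 42.3 CPM in TIR1, where CPM are counts scaled to a common library size). In TIR1 act-5 and vha-6 averaged 192 and 182 CPM, ges-1 8.7 and elt-2 2.6, while the muscle gene unc-54 averaged 10.4. Of the 56 sperm markers in the table, 46 had 0 counts in all 8 libraries, as did 27 of 45 neuron markers and 84 of 198 hypodermal markers. Fewer were absent in other lists: 3 of 27 germline and oocyte markers and 2 of 18 body wall muscle markers. None of 62 tested markers of 8 other tissues was called at 12 h (edgeR; 3 had an unadjusted p under 0.05, all higher in Pol I-AID, and DESeq2 called 0). Several summed marker lists had higher means in Pol I-AID, none past the adjusted threshold. Somatic gonad markers took 19.6 to 32.8 ppm of the counts outside vitellogenins in Pol I-AID and 12.3 to 17.9 in TIR1, the lowest p that 4 against 4 libraries can give (two-sided exact permutation p 0.0286, adjusted 0.2 over 14 library measures). Coelomocyte markers averaged 8.57 against 4.93 ppm (exact permutation p 0.0571), hypodermal markers 198 against 132 ppm (0.0857) and neuron markers 52.6 against 42.9 ppm (0.0857), each adjusted to 0.24. Only 1 of the 8 somatic gonad markers was abundant enough to be tested and lag-2 and inx-9 had 0 counts, and the part of other tissues in the results was not tested.

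The library labelled TIR1 12 h replicate 4 stood apart from the other 3. Each library was placed on the time axis of TIR1 with the 452 genes that rose (6.55% of the 6903 genes tested) and the 218 that fell (3.16%) from 0 to 24 h in TIR1, where 0 is the mean of the TIR1 0 h libraries and 1 that of the TIR1 24 h libraries. None of the 12 h libraries entered that choice. On the genes that rose, TIR1 12 h replicates 1 to 3 lay at 0.662, 0.638 and 0.612 and replicate 4 at 0.0929. On the genes that fell they lay at 0.657, 0.684 and 0.673, and replicate 4 at 0.111. Replicate 4 was thus beside the 0 h libraries on both sets, while the other 3 TIR1 libraries lay close together. Its correlation of log2 CPM was higher with the TIR1 0 h mean (Pearson r = 0.986 across genes, which are not independent) than with the other TIR1 12 h libraries (0.968), whereas replicates 1 to 3 correlated at 0.958 to 0.961 with 0 h and 0.975 to 0.982 with the rest of their group. Its vitellogenin share was 67.6%, against 71.4 to 76.5% in the other TIR1 libraries and 67.6 to 69.4% at TIR1 0 h. The main counts and the named genes that lost their call without it are given below, and the reason for its place was not tested.

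**Figure D1:**
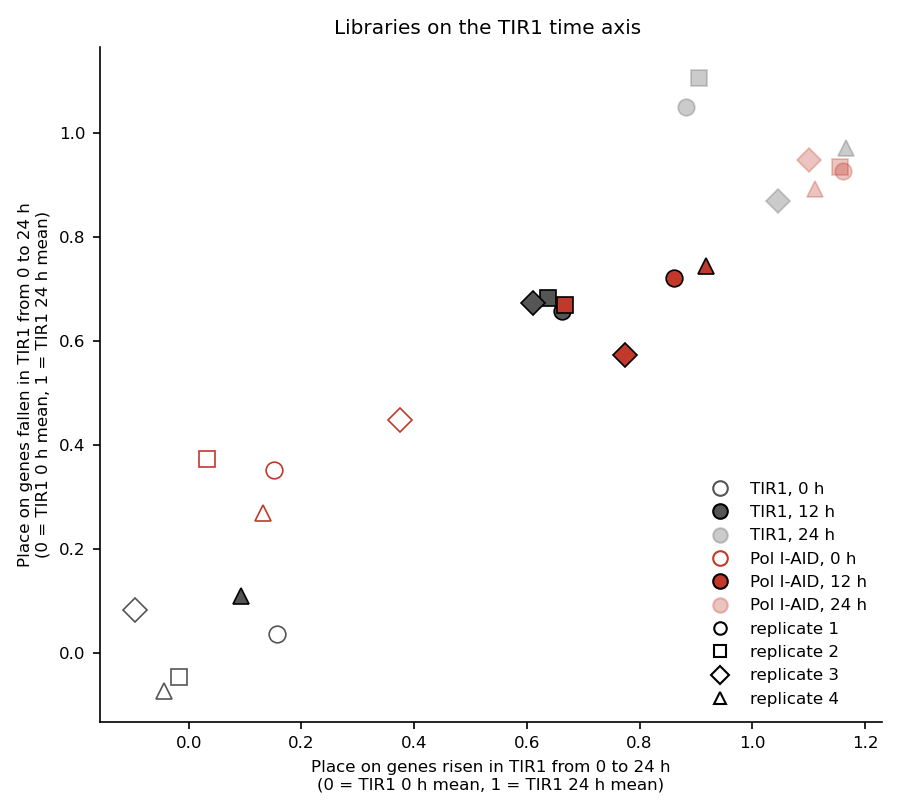
Place of each of the 24 libraries between TIR1 at 0 h (0) and TIR1 at 24 h (1), as the scaled median log2 CPM of the genes that rose (x axis) and fell (y axis) in TIR1 over that time. Grey marks TIR1 and red marks Pol I-AID, open symbols are 0 h, black-edged symbols 12 h and pale symbols 24 h, and the shape gives the replicate. TIR1 12 h replicate 4 sits at 0.0929 and 0.111, among the 0 h libraries, and the other 7 libraries of 12 h sit between 0.573 and 0.918.

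The Pol I-AID libraries were further along the set of rising genes than the TIR1 libraries. They lay at 0.861, 0.667, 0.773 and 0.918 in replicates 1 to 4, all above the highest TIR1 value of 0.662 (two-sided exact permutation p 0.0286, adjusted 0.2). Without TIR1 replicate 4 the difference was 0.168 in place of 0.304 (exact permutation p 0.0571, the smallest that 4 against 3 can give). On the falling genes the Pol I-AID libraries lay at 0.573 to 0.744, and the strains overlapped (difference 0.146, exact permutation p 0.486, and 0.00566 without TIR1 replicate 4). The strains thus differed at 12 h in their place on the rising genes before correction over the 14 measures but not after it. A difference on the falling genes was not detectable. Before auxin, Pol I-AID replicates 1 to 4 already lay at 0.151, 0.0334, 0.375 and 0.132 on the rising genes, and TIR1 at -0.0943 to 0.156. On the falling genes Pol I-AID then lay at 0.269 to 0.448 and TIR1 at -0.0729 to 0.0821. Whether the strain difference in place changed from 0 to 12 h was not tested.

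With an FDR under 0.05 and at least a 2-fold change, 134 genes (1.94% of the 6903 tested) had a higher level in Pol I-AID and 36 (0.522%) a lower level, and these are the genes named called below. Here and below the FDR is the edgeR quasi-likelihood p adjusted over all genes tested, log2 fold changes are Pol I-AID over TIR1 with a standard error (SE), and there were 4 libraries per group. The higher genes reached a log2 fold change of 8.04 with a median of 1.62, and 43 exceeded 2. The lower genes reached -2.67 with a median of -1.2, and 4 exceeded 2 in size. 1 higher gene, WBGene00050974, had 0 counts in all 4 TIR1 libraries and 27 over those of Pol I-AID, and no fold is given for it. The median over all genes was -0.01, and the median exon length was 1576 bases in the higher and 1455 in the lower genes against 1588 in all. Changes were thus more often upward, and the lower genes lay mostly near the 2-fold limit. By FDR alone 204 genes (2.96%) were higher and 168 (2.43%) lower, so that the excess of higher genes depends on the fold limit.

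The 4 libraries of each strain did not overlap in 91.8% of the 134 higher genes and in 28 of the 36 lower genes (77.8%), against 10.6% of all genes tested. A single library often formed the edge of a group. TIR1 replicate 4 was the lowest TIR1 library in 65 of the 134 higher genes (48.5%, against 26.2% of all genes) and the highest in 22 of the 36 lower genes (61.1%, against 29.1%). Pol I-AID replicate 1 was the highest Pol I-AID library in 90 of the 134 (67.2%, against 26.4%). TIR1 replicate 1 was the highest TIR1 library in 71 of them (53%, against 24.2%). Leaving out TIR1 12 h replicate 4 gave 116 higher and 20 lower genes, and 99 and 14 of them were among the 134 and 36. Leaving out Pol I-AID 12 h replicate 1 gave 79 and 22, with 78 and 17 shared. All 134 and 36 genes kept their direction when either library was left out, and their medians were 1.55 and -1.11 without the former and 1.48 and -1.19 without the latter. In the strains outcrossed 3 times alone (without replicate 1), 96 and 19 genes were called. Of the 67 named genes called, 21 lost their call without TIR1 12 h replicate 4. In abcf-1, cpr-5, sec-61.A and skn-1 the change then fell short of 2-fold. In the other 17 the FDR was 0.0545 to 0.288: these were eif-4A3, eif-6, gst-10, haf-7, irg-2, nduf-6, pals-24, pgp-5 and toe-1 among the higher genes and aldo-1, asp-8, cyp-13A6, cyp-13A12, gbh-2, nta-1, tasp-1 and WBGene00022487 among the lower genes. The strains outcrossed 1 time gave 1 library per group and no test.

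The genes with the largest increases included transporters and enzymes of detoxification, a role in which the intestine is prominent. pgp-8 (WBGene00004002) encodes a P-glycoprotein, an ABC transporter that exports small molecules. Its level in TIR1 replicates 1 to 4 was 0.165, 0.871, 0.154 and 0.149 CPM, from 32 counts in all, and in Pol I-AID it was 143, 75.5, 89.6 and 53.5 CPM. The strains were far apart, and TIR1 replicate 2 held most of the few TIR1 counts (log2 fold change 8.04, SE 0.76, FDR 2.2e-07). Its means before auxin were 0.0914 CPM (TIR1) and 0.729 CPM (Pol I-AID), and the change of the strain difference from 0 to 12 h did not pass the test (FDR 0.122).

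gst-24 (WBGene00001772), a glutathione S-transferase, was at 0.988, 5.89, 0.462 and 0.224 CPM in TIR1 and at 54.2, 32, 66.2 and 55.1 CPM in Pol I-AID. The groups did not overlap, and TIR1 replicate 2 was above its group here as in pgp-8 (log2 fold change 4.77, SE 0.60, FDR 1.33e-05). cyp-14A5 (WBGene00000373), a cytochrome P450 gene, was at 1.65, 0.332, 0.385 and 0.0373 CPM in TIR1 and 23.6, 7.36, 14.1 and 7.77 CPM in Pol I-AID (log2 fold change 4.56, SE 0.62, FDR 4.11e-05). In both genes every Pol I-AID library exceeded every TIR1 library.

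Among whole families, 8 of 45 tested UDP-glucuronosyltransferase genes (enzymes that attach sugar to small molecules for excretion) were higher and none lower, beside 1.94% of all genes that were higher. They were ugt-24, ugt-25, ugt-26, ugt-29, ugt-43, ugt-44, ugt-48 and ugt-65, with log2 fold changes from 1.08 to 2.06. The median of the family was 0.02, close to the -0.01 of all genes, and it was -0.11 without either TIR1 12 h replicate 4 or Pol I-AID replicate 1. By FDR alone 9 were higher and 1 lower, and 9 and 4 without the former library, 6 and 1 without the latter. ugt-44 (WBGene00008486) was at 98.2, 48.8, 56.9 and 90.4 CPM in TIR1 and at 273, 234, 172 and 186 CPM in Pol I-AID (1.55, SE 0.22, FDR 5.23e-05). Its groups did not overlap. ugt-26 averaged 210 ± 106 CPM (SD) in TIR1 and 514 ± 141 in Pol I-AID (1.29, SE 0.28, FDR 0.00665), with TIR1 replicate 1 at 354 CPM and replicate 4 at 111 CPM marking the ends of the control group.

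Of 39 ABC transporter genes, 5 were higher and none lower: pgp-8, its neighbour pgp-5 (1.4), pgp-1 (1.39), haf-7 (1.09) and abcf-1 (1.09), whose human counterpart acts in translation initiation and exports nothing. Of all genes 1.94% were called higher and 0.522% lower. By FDR alone 8 of the 39 were higher (2.96% of all genes were) and 1 lower. Without TIR1 replicate 4 the numbers were 5 and 1, and without Pol I-AID replicate 1 they were 3 and 1. In pgp-1, TIR1 replicates 1 to 3 held 24.0, 37.6 and 29.2 CPM and replicate 4 held 6.12, while Pol I-AID held 50.6 to 78.6. Of 24 glutathione S-transferases, gst-24 and gst-10 (1.24) were higher, beside 1.94% of all genes. Of 51 cytochrome P450 genes, cyp-14A5 was higher, a share near the 1.94% of all genes. cyp-13A6 (-1.4) and cyp-13A12 (-1.09) were lower, beside 0.522% of all genes. Neither of the lower genes was called without TIR1 replicate 4 (-1.32 and -0.73, FDR 0.0545 and 0.116). That library held 74.9 CPM of cyp-13A12 against 33.5 to 40 in the other controls. Of 21 genes linked to the oxidative stress factor SKN-1, gst-24, gst-10 and skn-1 itself were higher, beside 1.94% of all genes. skn-1 (the Nrf homologue) averaged 39.8 ± 20.3 CPM in TIR1 and 80 ± 13.1 in Pol I-AID (1.01, SE 0.23, FDR 0.00926), with overlap: TIR1 replicate 1 at 67.4 CPM lay above Pol I-AID replicate 4 at 66.6. skn-1 lost its call in 8 of 21 alternatives, among them those that left out TIR1 12 h replicate 4 or Pol I-AID replicate 1. It shares exon positions with csn-5 on the other strand. The list's median was -0.11, below that of all genes, and 18 of its 21 members were not called.

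**Figure D2:**
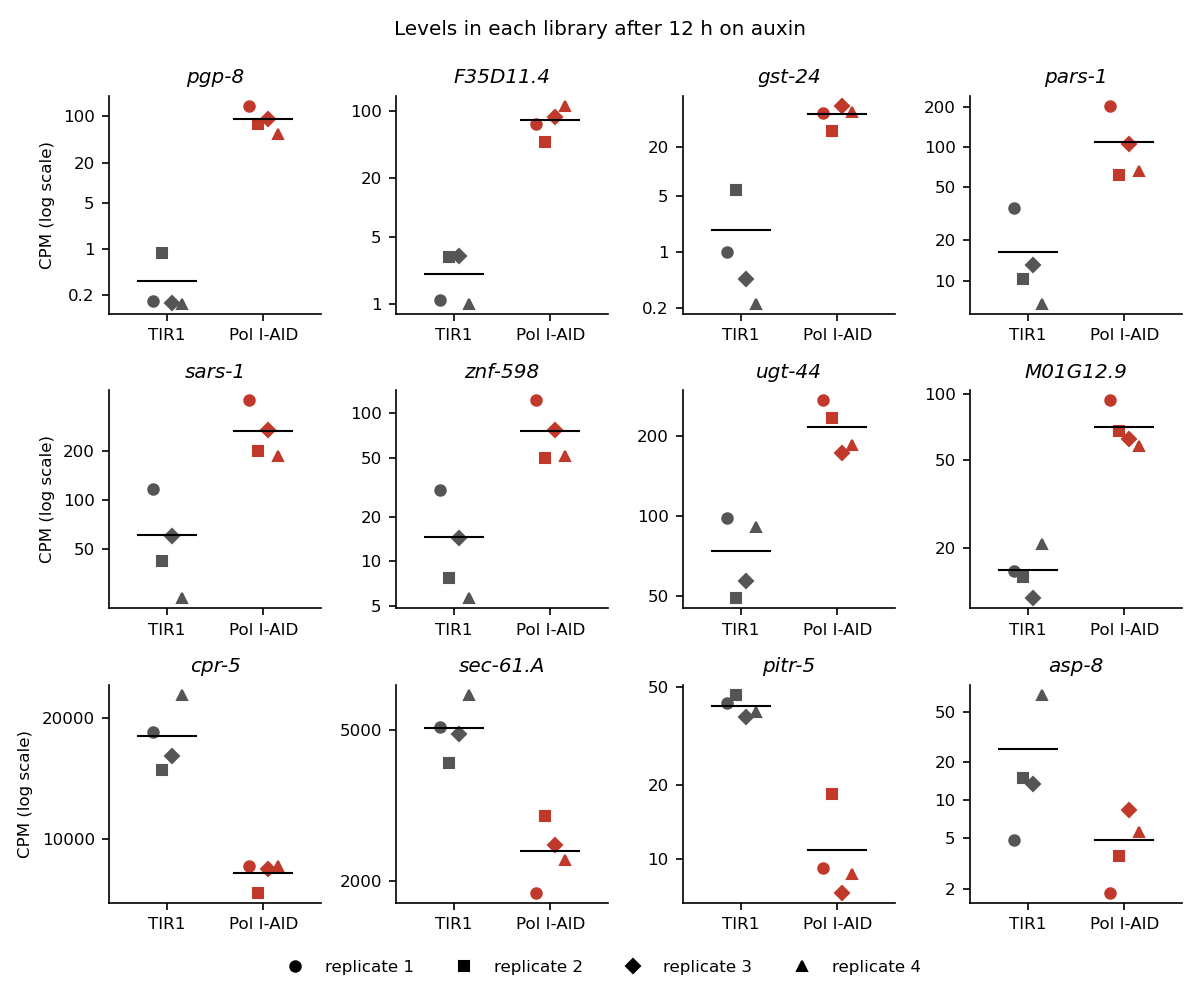
CPM (log axis) of 12 genes called at 12 h in each of the 4 TIR1 (grey) and 4 Pol I-AID (red) libraries, with the replicate given by the shape and the mean by a black line. The top and middle rows hold higher genes and the bottom row lower genes. asp-8 is the only gene shown whose groups overlap: TIR1 replicate 1 was at 4.89 CPM and Pol I-AID replicate 3 at 8.44 CPM.

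Genes for aminoacyl-tRNA synthetases, the enzymes that charge each tRNA with its amino acid, were the protein synthesis group with most calls. Of 30 tested, 7 were called higher and none lower (1.94 and 0.522% of all genes), and by FDR alone 11 were higher (2.96% of all genes were). The 7 were pars-1, sars-1, nars-1, aars-2, iars-1, tars-1 and dars-1, named for proline, serine, asparagine, alanine, isoleucine, threonine and aspartate, and those of kars-1, lars-1, ears-1 and gars-1 (lysine, leucine, glutamate, glycine) ranged from 0.62 to 0.95 below the fold limit. The number by FDR was also 11 when TIR1 12 h replicate 4 was left out, and it was 7 when Pol I-AID 12 h replicate 1 was, which were the ends of the range over the alternatives tried. Members differed by name: 10 of the 19 whose symbols end in 1 passed the FDR (median 0.62) and 1 of the 11 ending in 2, aars-2 (median -0.08). Most genes of the latter kind encode mitochondrial enzymes in the worm, aars-2 being a cytosolic one. glp-4, the gene of a valyl-tRNA synthetase, lies outside the list and was noticed after its value was seen (1.18, SE 0.16, FDR 5.2e-05).

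pars-1 (WBGene00004189) was at 35, 10.2, 13 and 6.68 CPM in TIR1 and at 203, 61.3, 105 and 65.8 CPM in Pol I-AID (2.75, SE 0.40, FDR 9.67e-05). sars-1 (WBGene00005663) was at 117, 41.9, 60.1 and 24.7 CPM in TIR1 and at 410.3, 200, 270.2 and 187 CPM in Pol I-AID (2.13, SE 0.38, FDR 0.000969). In both, replicate 1 was the highest library of each strain and TIR1 replicate 4 the lowest of all, and the groups did not overlap. iars-1 behaved otherwise: it was at 128, 74.6, 78.7 and 185 CPM in TIR1 and at 478, 164, 285 and 162 CPM in Pol I-AID, so that TIR1 replicate 4 exceeded Pol I-AID replicates 2 and 4 (1.23, SE 0.31, FDR 0.0162). Before auxin iars-1 averaged 77.1 CPM in Pol I-AID against 203 in TIR1 (FDR 0.0525), and the strain difference changed by 2.63 on the log2 scale from 0 to 12 h (FDR 0.000761). sars-1 shares exon positions with C47E12.13 on the other strand, and iars-1 with mpz-5. The kit does not mark strand, so reads of such pairs cannot be told apart. Other named genes that share exon positions on the other strand are tars-1 (kel-1), dars-1 (nlp-36), ugt-25 (mlst-8), ugt-48 (cft-1) and fat-5 (twk-42). So do nduf-6 (prpf-4), pitr-5 (F09G2.8), aak-2 (mec-4), nta-1 (F12E12.1) and gbh-2 (T13H5.1).

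**Figure D3:**
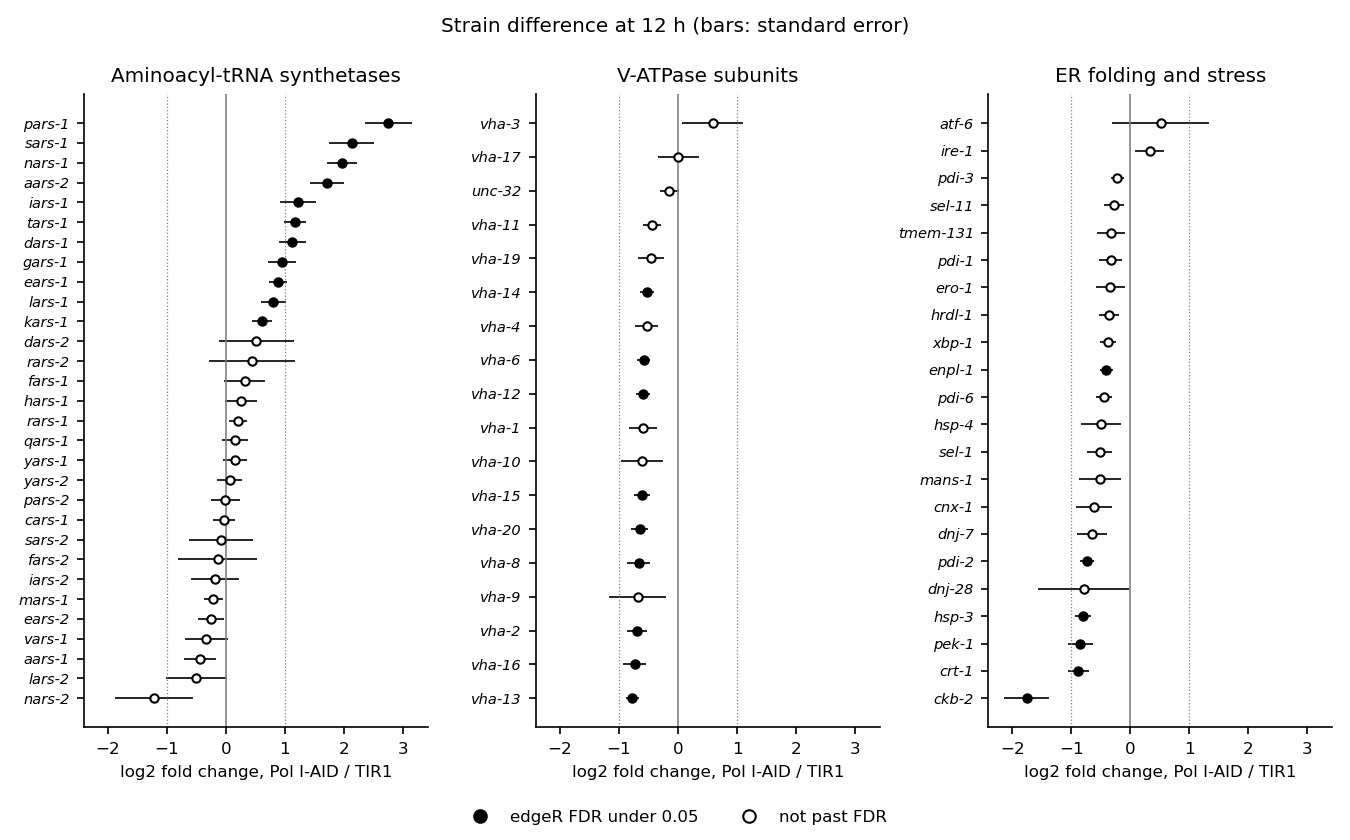
Log2 fold change at 12 h (Pol I-AID over TIR1, x axis) with its standard error for every tested member of 3 lists, filled where the edgeR FDR was under 0.05, and with dotted lines at 2-fold. 11 of 30 aminoacyl-tRNA synthetases passed the FDR upward, 9 of 18 V-ATPase subunits and 6 of 22 genes of endoplasmic reticulum (ER) folding and stress passed it downward, and no member of these lists passed it in the other direction. Of all genes tested 2.96% passed it upward and 2.43% downward.

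Other genes of the translation apparatus had fewer calls. Of 77 cytosolic ribosomal protein genes none was called by edgeR or DESeq2 (3 higher and 2 lower at an unadjusted p under 0.05). Their median was 0.23, and it ranged from -0.16 to 0.63 over the alternatives. At 0 h it was already 0.52, against 0.04 over all genes. At 24 h it was -0.86, with 6 called lower beside 3.36% of all genes. Of 6 tested Pol I subunit genes none was called (1 higher at an unadjusted p under 0.05, and 0 by DESeq2). That gene was rpoa-2 (WBGene00008781) itself, the tagged gene, whose transcript was rare at 1.43, 0.539, 0.154 and 0.224 CPM in TIR1 and 1.09, 1.63, 1.39 and 1.2 CPM in Pol I-AID (1.22, SE 0.57, FDR 0.285). The strains overlapped, and since the degron acts on the protein, the transcript does not report depletion. Of 33 genes of ribosome biogenesis and the nucleolus, eif-6 (1.35), which keeps the large subunit apart from the small one, and toe-1 (1.41) were higher and none was lower. Of all genes 1.94% were called higher, and 2.96% were higher by FDR. The median of this list was 0.43, against -0.01 over all genes, and 29 of 33 members were above 0. At 0 h its median was 0.17, against 0.04 over all genes. The strains already differed by 1.34 in toe-1 before auxin (FDR 0.193). ncl-1, named for its effect on nucleolar size, passed the FDR below the fold limit (0.72, SE 0.16, FDR 0.0069). eif-6 and toe-1 lost their calls in 10 and 8 of 21 alternatives, and 1 member passed the FDR without TIR1 replicate 4. eif-6 shares exon positions with gale-1, and its reads may be split between them.

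2 genes of the largest changes, znf-598 and mbf-1, have relatives that act at stalled ribosomes, and no list of such genes was tested. znf-598 (WBGene00016888) is the homologue of the human ubiquitin ligase that marks collided ribosomes, and mbf-1 (WBGene00003148) that of a yeast and human factor that binds them. znf-598 was at 30.5, 7.75, 14.4 and 5.64 CPM in TIR1 and averaged 75.3 ± 33.7 CPM (SD) in Pol I-AID, where replicate 2 was lowest at 50 CPM (2.38, SE 0.39, FDR 0.00041). mbf-1 was at 25.8, 24.4, 23 and 6.20 CPM in TIR1 and at 143, 54.9, 138 and 92.1 CPM in Pol I-AID (2.43, SE 0.50, FDR 0.0035). All Pol I-AID libraries were above all TIR1 libraries in both genes, and both calls were kept in all 21 alternatives. At 24 h their strain differences were 0.95 and 1.12 and did not pass the test (FDR 0.0976 and 0.128). The TIR1 means of znf-598 were 7.65, 14.6 and 60.6 CPM at 0, 12 and 24 h, and those of Pol I-AID 5.31, 75.3 and 117 CPM.

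Several genes chosen after their values were seen act in the nucleus and in RNA processing. ran-1, the GTPase that drives nuclear transport, was at 2.53, 3.61, 2.62 and 3.14 CPM in TIR1 and 15.6, 10.6, 14.7 and 8.58 CPM in Pol I-AID (2.05, SE 0.20, FDR 3.37e-07). npp-9, a nucleoporin gene, was also higher (1.84, SE 0.35). nap-1, of a nucleosome assembly protein, averaged 7.88 ± 1.05 CPM in TIR1 and 24.7 ± 6.54 in Pol I-AID (1.65, SE 0.18). The strains did not overlap in these 3 genes. nog-1, whose yeast counterpart acts in the maturation of the large ribosomal subunit, was higher in Pol I-AID by 1.96 (SE 0.22, FDR 2.3e-06). hoe-1, of the enzyme that trims the 3′ ends of tRNAs, was at 80.6, 32.3, 46.2 and 12.6 CPM in TIR1 and 243, 117, 174 and 120.4 CPM in Pol I-AID (1.93, SE 0.42, FDR 0.00633), without overlap. In ran-1 and nog-1 the 24 h difference was larger still, at 3.13 and 2.63.

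Immune and stress genes gave scattered calls. Of 7 irg genes, named for their response to infection, irg-1 and irg-2 were higher, beside 1.94% of all genes. irg-2 averaged 60.7 ± 21 CPM in TIR1 and 139 ± 42.2 in Pol I-AID (1.19, SE 0.33, FDR 0.0282), and it lost its call in 8 of 21 alternatives, TIR1 12 h replicate 4 or Pol I-AID replicate 1 left out among them. irg-1 was rare, with 21 counts over the TIR1 libraries and 216 over those of Pol I-AID. Of 13 genes of the intracellular pathogen response, pals-24 was higher (1.05) and 12 had a positive fold change (median 0.99). Of 14 genes in the CUB-like, dod and dct list, dod-17 was higher (1.61, SE 0.25, FDR 0.00019), and of 67 C-type lectin genes clec-67 was higher (2.37) and clec-7 lower, a share of higher genes no greater than the 1.94% of all genes.

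Of 55 F-box genes (substrate adaptors of ubiquitin ligases), 3 were higher and none lower, beside 1.94 and 0.522% of all genes. They were fbxa-79 (1.44), fbxa-82 (1.33) and fbxa-163, which had 6 counts over the 4 TIR1 libraries and 100 over those of Pol I-AID. zip-10, of a bZIP transcription factor, was at 11.7, 12.1, 9.16 and 11.8 CPM in TIR1 and 40, 30.6, 46.8 and 41.6 CPM in Pol I-AID (1.83, SE 0.45, FDR 0.0141). The groups lay far apart. It shares exon positions with skp-1 on the other strand. Single members were higher in further lists, beside 1.94% of all genes. They were fat-5, a Δ9 desaturase gene, of 28 fatty acid genes (1.45), dhs-12 of 34 dehydrogenases (1.69) and nduf-6 of 60 respiratory chain genes (1.84). dhs-12 overlaps gst-4 on the same strand and had 39 counts over the TIR1 libraries and 114 over those of Pol I-AID. In nduf-6 the strains overlapped. These calls were lost in 5 of 21 (fat-5), 5 of 20 (dhs-12) and 8 of 20 (nduf-6) alternatives.

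Some of the largest changes were in genes without an assigned role in the tables used. F35D11.4 (WBGene00018045) was at 1.1, 3.07, 3.12 and 1.01 CPM in TIR1 and 74.0, 47.3, 87.0 and 113 CPM in Pol I-AID (5.26, SE 0.37, FDR 1.61e-09). F08G2.5 (WBGene00008577) was at 4.17, 3.44, 2.58 and 0.859 CPM in TIR1 and 73.7, 48.8, 71.8 and 67 CPM in Pol I-AID (4.58, SE 0.48, FDR 8.41e-07). M01G12.9 (WBGene00010822) was at 15.8, 14.8, 11.8 and 20.9 CPM in TIR1 and 93.6, 67.9, 62.7 and 57.8 CPM in Pol I-AID (2.15, SE 0.20, FDR 1.64e-07). The groups of these 3 genes did not overlap, and in M01G12.9 TIR1 replicate 4 was the highest control. Y82E9BL.18 (2.46), C49G7.12 (2.29), F56D2.5 (2.19), F35E12.9 (2.48) and Y41C4A.11 (2.32) completed the genes with the largest increases. The last 2 lost their calls in 4 and 8 of 21 alternatives.

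Higher genes often lay beside other higher genes. In the WBcel235 annotation all but 3 of the 134 could be placed by gene order, and 36 of those placed (27.5%) had another higher gene within 5 genes on either side, against 415 of 6639 (6.25%) of the other genes tested. Among the lower genes 2 of 34 (5.88%) had a lower neighbour, against 2.03% of the others. The groups included pgp-5 with pgp-8, ugt-25 with ugt-26, ugt-43 with ugt-44, C49G7.7 and C49G7.12 with irg-2, and Y58A7A.3, Y58A7A.4 and Y58A7A.5. Neighbours can be similar copies, and reads that fit several of them were not counted, which was not examined gene by gene.

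The lower genes included the most abundant transcripts with a call. cpr-5 (WBGene00000785), of a cathepsin B-like protease of the gut, was at 18466, 14876, 16116 and 22881 CPM in TIR1 and at 8556, 7317, 8376 and 8527 CPM in Pol I-AID (-1.14, SE 0.12, FDR 4.35e-07). The groups did not overlap, but without TIR1 replicate 4 the change was just under the 2-fold limit (-0.9986). Of 10 cathepsin genes cpr-5 was called (0.522% of all genes were called lower and 2.43% were lower by FDR), and by FDR alone cpr-1, cpr-4 and cpr-9 were lower too (-0.90, -0.88 and -0.89), while cpr-6, the counts of which averaged 13310 CPM in TIR1, was at 0.05. cpr-9 was at 22097, 22467, 21415 and 23739 CPM in TIR1 and 10020, 12249, 12476 and 13709 CPM in Pol I-AID. By FDR 4 members were lower when TIR1 replicate 4 or Pol I-AID replicate 1 was left out as well, and 3 to 5 members were lower over all alternatives.

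Of 11 aspartic protease genes asp-8 was called, and 5 were lower by FDR alone (0.522 and 2.43% of all genes), but 0 were without TIR1 replicate 4 and 1 was without Pol I-AID replicate 1. asp-8 (WBGene00019105) was at 4.89, 15, 13.5 and 68.8 CPM in TIR1 and at 1.85, 3.66, 8.44 and 5.58 CPM in Pol I-AID (-2.40, SE 0.58, FDR 0.0126). The high control is TIR1 replicate 4, at the level of the TIR1 0 h libraries (mean 59.8 CPM). Without it the difference was -1.19 and not called. At 0 h Pol I-AID already averaged 18.7 CPM, and the strain difference did not change detectably from 0 to 12 h (FDR 0.839).

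2 genes of protein entry into the ER were lower. sec-61.A (WBGene00013311), of the channel through which secreted proteins enter the ER, was at 5081, 4090.0, 4853 and 6173 CPM in TIR1 and at 1857, 2968, 2479 and 2262 CPM in Pol I-AID (-1.08, SE 0.15, FDR 3.84e-05). trap-1 (WBGene00022122), of a subunit associated with that channel, was at 47.2, 43.5, 51.5 and 68.8 CPM in TIR1 and at 13.2, 25.2, 27.3 and 23.3 CPM in Pol I-AID (-1.25, SE 0.19, FDR 0.000224). Neither gene overlapped between the strains. sec-61.A lost its call in 4 of 21 alternatives, TIR1 replicate 4 or Pol I-AID replicate 1 left out among them, where its change was under 2-fold (its highest FDR over the alternatives was 0.00832), and trap-1 was kept in all 21. trap-1 was the only call in the list of mitochondrial chaperones and proteases, where it had been placed by its symbol and does not belong. A list of 18 genes of ER translocation and glycosylation, written after these 2 genes were seen, held no other lower gene by FDR, hpo-26 was higher by FDR (0.75), and its median was -0.23.

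Genes of ER folding and stress had mostly negative fold changes. Of 22 tested, 6 were lower by FDR, 20 had a negative fold change and the median was -0.47, beside 2.43% of all genes lower by FDR and a median of -0.01. pdi-2, of a protein disulphide isomerase, averaged 1362 ± 149 CPM in TIR1 and 817 ± 54.6 in Pol I-AID (-0.74, SE 0.12, FDR 0.000416). The calreticulin gene crt-1 (-0.88), the BiP homologue hsp-3 (-0.80), the ER stress kinase gene pek-1 (-0.84) and the GRP94 homologue enpl-1 (-0.41) were the others of folding and stress. In these 5 genes the strains did not overlap. The only member past the fold limit, ckb-2 (-1.75, SE 0.38, FDR 0.0063), encodes a choline kinase and not a chaperone. hsp-4, the BiP gene most used as an ER stress reporter in the worm, was at -0.49 (FDR 0.555), and xbp-1 at -0.38 (FDR 0.109). Without TIR1 replicate 4 the number by FDR was 6, without Pol I-AID replicate 1 it was 5, and over all alternatives it was 4 to 7.

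Subunit genes of the V-ATPase, the proton pump of lysosomes and of the gut's apical membrane, had a similar median. None of 18 was called in edgeR or DESeq2, but 9 were lower by FDR (13 at an unadjusted p under 0.05). The median was -0.59 and 16 had a negative fold change, beside 2.43% of all genes lower by FDR and a median of -0.01. vha-13 was at 156, 173, 159 and 194 CPM in TIR1 and at 93.6, 107, 104 and 94.1 CPM in Pol I-AID (-0.77, SE 0.11, FDR 5.75e-05). vha-6, the subunit of the intestinal apical membrane, was at 170.0, 187, 171 and 199 CPM in TIR1 and at 107, 138, 119.8 and 121.9 CPM in Pol I-AID (-0.58, SE 0.11, FDR 0.00194). In both genes the strains did not overlap, and TIR1 replicate 4 was the highest control. Without that library 6 subunits were lower by FDR, without Pol I-AID replicate 1 there were 5, and the number ranged from 3 to 11 over all alternatives, while the median stayed between -0.64 and -0.44. At 0 h the medians of the V-ATPase and ER folding lists were 0.08 and 0.17.

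The other lower genes were a mixed group. pitr-5 (WBGene00017312), of a phosphate transporter family, was at 43.3, 46.6, 37.7 and 39.8 CPM in TIR1 and at 9.20, 18.4, 7.26 and 8.69 CPM in Pol I-AID (-1.94, SE 0.32, FDR 0.000407), without overlap and called in all 21 alternatives. clec-7 was at 36.2, 14.7, 27.1 and 57.8 CPM in TIR1 and 19.3, 6.54, 6.46 and 8.87 CPM in Pol I-AID (-1.72, SE 0.35, FDR 0.00331), where replicate 1 of Pol I-AID lay above replicate 2 of TIR1. aak-2, of an AMPK catalytic subunit, averaged 4.52 ± 0.528 CPM in TIR1 and 2.17 ± 0.39 in Pol I-AID (-1.06, SE 0.21, FDR 0.0022). aldo-1, of an aldolase, was at -1.33 but had been at -1.75 at 0 h, and it lost its call in 10 of 21 alternatives. nta-1, tasp-1 (threonine aspartase), prx-11 (a peroxin), gbh-2 (a carnitine synthesis enzyme), nhr-13 (a nuclear receptor) and WBGene00022487 were at -1.28 to -1.13 and lost their calls in 4 to 11 alternatives.

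got-2.2, of an aspartate aminotransferase, rose from 0 to 12 h by 2.57 in TIR1 (FDR 0.000106) and by 1.29 in the Pol I-AID strain (FDR 0.00692), and the test of the difference between these rises was not passed (FDR 0.175). It was at 93.3, 83.4 and 94.4 CPM in TIR1 replicates 1 to 3 and at 12.4 CPM in replicate 4, and at 30.9, 28.4, 32.7 and 30.7 CPM in Pol I-AID. Replicate 4 was again at the level before auxin, where the means of TIR1 and Pol I-AID were 12.0 and 12.5 CPM. After 24 h they were 97.1 and 29.9 CPM. The call at 12 h was lost in 11 of 21 alternatives (-1.21, SE 0.32, FDR 0.0259), and at 24 h the difference was -1.70 (FDR 0.0008).

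The called genes were followed in the 0 and 24 h libraries, which had no part in choosing them beyond the shared filter, scaling and spread. Some of these libraries were shallower or richer in other tissues. TIR1 0 h replicate 3 held 3.18 M counts and TIR1 24 h replicate 1 held 4.68 M. Hypodermal markers took 3657 and 1481 ppm in TIR1 0 h replicates 1 and 4, against 106 to 302 at 12 h. Germline and oocyte markers took 964 ppm in Pol I-AID 0 h replicate 4, against 78.8 to 120. The TIR1 libraries named here also define the time axis. At 0 h the medians were -0.22 for the higher genes and -0.15 for the lower genes (0.04 over all genes), and 1 gene of each group was called at 0 h. At 24 h they were 1.25 and -1.21. All but 3 of the 134 higher genes were above 0 at 24 h and 36 of the 36 lower genes below it. In the same direction 56% of the higher and 52.8% of the lower genes were called at 24 h, beside 4.35% and 3.36% of all genes, and none in the opposite direction. The fold change was larger at 24 h than at 12 h in 35.1% of the higher and 36.1% of the lower genes, against 48.6% of all genes, but the genes were chosen for their fold at 12 h and nothing is read from these shares. From 12 to 24 h the strain difference changed in 0 genes of either group by edgeR (26 and 9 at an unadjusted p under 0.05, or 19.4 and 25%, against 10.5% of all genes) and in 3 and 1 by DESeq2. Over all genes the counts were 25 by edgeR and 91 by DESeq2. These tests also use the 12 h libraries that chose the genes.

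The test of the change from 0 to 12 h, which removes differences present before auxin, was passed by 73 of the 134 higher genes upward (54.5%, beside 1.88% of all genes) and 11 of the 36 lower genes downward (30.6%, beside 1.06%). It shares the 12 h libraries with the contrast that chose the genes and so is no independent support. It also rests on the 0 h libraries, which were not alike. The median of the higher genes at 0 h was 0.47 in TIR1 replicate 1 and -0.23 to -0.06 in the other TIR1 libraries. Among the genes named above, M01G12.9 changed by 2.76 (FDR 1.81e-06), Y82E9BL.18 by 2.58 (FDR 6.6e-05), znf-598 by 2.94 (FDR 0.00276), sars-1 by 2.4 (FDR 0.0105), cpr-5 by -0.97 (FDR 0.000761) and trap-1 by -1.72 (FDR 0.000553). For pgp-8, gst-24, skn-1, asp-8 and aldo-1 the change did not pass the test (FDR 0.122 to 0.869).

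The direction of the strain difference often matched that of time in TIR1. Of the 134 higher genes, 54 (40.3%) rose and 2 fell in TIR1 from 0 to 24 h, where 6.55% of all genes rose. Of the 36 lower genes, 12 (33.3%) fell and 1 rose, where 3.16% of all genes fell. The contrasts share no library. However, TIR1 12 h replicate 4, at 0.0929 and 0.111 on the time axis, is 1 of the 4 controls at 12 h. It was the lowest control in 48.5% of the higher genes and the highest in 61.1% of the lower genes. On that axis Pol I-AID at 0 h lay at 0.0334 to 0.375 and at 0.269 to 0.448. The shares were not computed without that library, and its part in the match was not tested. Per library, the median of the higher genes relative to TIR1 at 0 h was 0.36, 0.16, 0.23 and -0.12 in TIR1 at 12 h, 1.83, 1.33, 1.7 and 1.4 in Pol I-AID at 12 h, and 0.72 to 1.01 in TIR1 at 24 h. The separation at 12 h follows from the choice of the genes and is a description. For the lower genes these medians were -0.44, -0.37, -0.51 and 0.05, then -1.52, -1.34, -1.29 and -1.37, and -0.68 to -0.52. M01G12.9, which fell by 0.73 in TIR1 from 0 to 24 h (FDR 0.0105), and ran-1, which did not change there detectably (-0.21), did not follow this pattern.

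**Figure D4:**
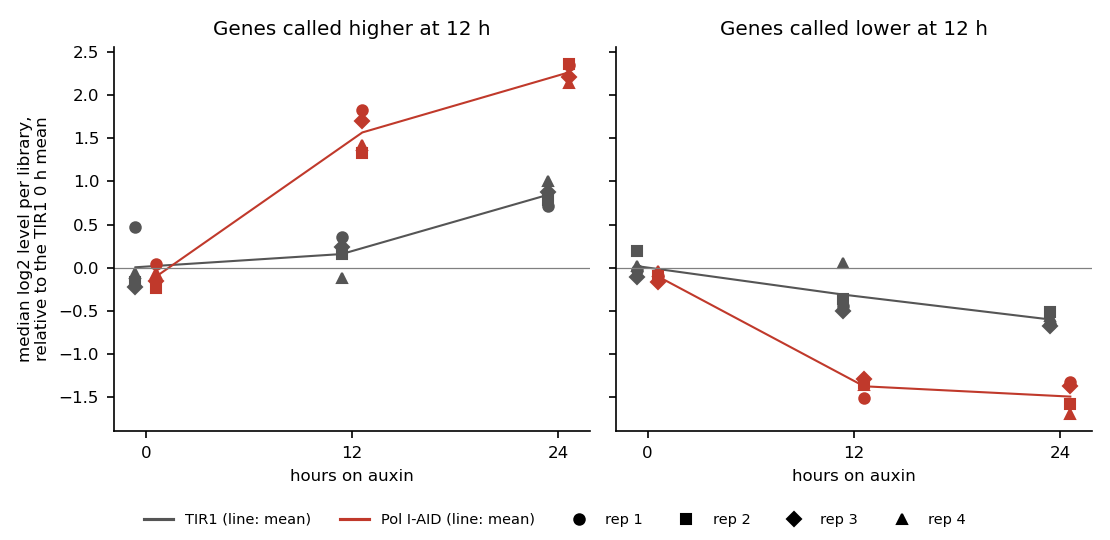
Median log2 level per library of the 134 genes called higher (left) and the 36 called lower (right) at 12 h, relative to the TIR1 0 h mean, at 0, 12 and 24 h on auxin, for TIR1 (grey) and Pol I-AID (red), with lines through group means and the replicate given by the shape. At 12 h the higher genes lie at 1.33 to 1.83 in Pol I-AID and at -0.12 to 0.36 in TIR1. The 12 h libraries chose the genes, and the 0 and 24 h libraries did not.

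In 16 of the 42 lists no gene was called. Beside the ribosomal proteins, Pol I subunits, V-ATPase and lipases they were mitochondrial ribosomal proteins, proteasome, cytosolic heat shock, lysozymes, saposin-like proteins, peroxiredoxins with superoxide dismutases and catalases, autophagy, vitellogenins, flavin monooxygenases, metal handling, histones, and DNA damage with apoptosis. These 12 held 234 tested genes, of which edgeR called 0 (14 higher and 20 lower at an unadjusted p under 0.05) and DESeq2 called 1 higher and 1 lower. By FDR alone lys-2, ttm-1 and ftn-1 were higher and lgg-2 and nuc-1 lower. The medians of the 12 lay between -0.59 and 0.35. Genes of the respiratory chain (5 of 60) and of lipases, fatty acid oxidation and the glyoxylate pathway (5 of 47) were in part lower by FDR, all short of 2-fold, beside 2.43% of all genes. These numbers were 0 and 0 with the 12 h libraries alone, 3 and 14 without TIR1 replicate 4, and 1 and 1 without Pol I-AID replicate 1.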

How the data were processed

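Whole-number counts per gene were deposited as a single table of 20392 genes by 24 libraries. Per the paper's methods, the authors trimmed SMART-Seq reads, aligned them to ce10 with hisat2 through QuasR and counted uniquely mapped reads over WS220 exons in same-strand orientation, although the kit does not mark strand. Gene symbols came from the reference tables (94.1% matched). The main test was edgeR 4.0.16 (R 4.3.3): filterByExpr, TMM scaling, 1 group per strain and time over all 24 libraries (18 residual degrees of freedom), quasi-likelihood F tests of Pol I-AID against TIR1 at 12 h, Benjamini-Hochberg FDR under 0.05 over the 6903 genes tested and a fold of at least 2. No replicate numbers were used as a block. CPM were computed with the TMM library sizes, and log2 CPM with 0.5 added served for medians and correlations. 1 count was worth 0.0365 to 0.0549 CPM in the 12 h libraries, so values under 1 CPM rest on few reads. Counts are of PCR-amplified reads without molecular identifiers. Small counts were mostly even numbers (70.1 to 75.1% of counts from 1 to 10 in the 12 h libraries), the reason for which was not tested. Per the labels, each group had 4 independent biological replicates.

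Library measures were compared with two-sided exact permutation tests over 4 against 4 libraries and adjusted over 14 measures. The named genes were rpoa-2, the 15 largest and 12 smallest log2 fold changes among called genes averaging 5 CPM or more in the 8 libraries, and called members of the lists. Others are said to have been chosen after their values were seen. The comparison, the gene lists and the tests were chosen with earlier results of these data known. Alternatives were DESeq2 1.42.0, other scalings, filters and thresholds, the 12 h libraries alone, terms for replicate and outcross, an exon length trend, and leaving libraries out. The procedure was tested on simulated data. No genome of the files' build was used here, so no coordinates or sequences are given, and the WBcel235 annotation served only for neighbouring and overlapping genes.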

Additional observations from a re-analysis of the deposited data

Results flagged for a closer look

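In groups of 4, a library was marked when its gap to the next, as a share of the group's range, exceeded Dixon's 95% critical value, which chance does in about 1 in 20 groups. Among 164 groups examined (named genes and library measures, all at 12 h) 19 were marked. The groups of 0 and 24 h were not examined in this way. TIR1 12 h replicate 4 was the marked library in 9 of them. It was lowest for mbf-1 (6.20 CPM, others 23 to 25.8), got-2.2 (12.4 CPM, others 83.4 to 94.4), the place on rising genes (0.0929), the place on falling genes (0.111) and coelomocyte markers (3.28 ppm). It was highest for asp-8 (68.8 CPM, others 4.89 to 15), WBGene00022487 (13.5 CPM), gbh-2 (12.8 CPM) and cyp-13A12 (74.9 CPM).

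TIR1 replicate 2 was high for pgp-8 (0.871 CPM, others 0.149 to 0.165) and gst-24 (5.89 CPM). TIR1 replicate 1 was high for F56D2.5 (20.9 CPM) and low for dhs-12 (0.110 CPM). TIR1 replicate 3 was low for zip-10 (9.16 CPM), ugt-48 (1.39 CPM) and aak-2 (3.73 CPM), and high for neuron markers (49.3 ppm). Pol I-AID replicate 2 was low for cpr-5 (7317 CPM) and cyp-13A6 (1.25 CPM).

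The strain difference changed from 0 to 12 h by edgeR's test of the interaction in 73 of the genes higher and 11 of the genes lower at 12 h. Among the genes with the largest changes it rose by 5.95 in F08G2.5, 5.19 in cyp-14A5, 4.71 in F35D11.4, 3.69 in F35E12.9, 2.94 in znf-598, 2.91 in mbf-1, 2.90 in C49G7.12, 2.76 in M01G12.9, 2.68 in F56D2.5, 2.58 in Y82E9BL.18, 2.48 in pars-1 and 2.4 in sars-1 (log2). It changed by -1.72 in trap-1, -1.67 in pitr-5, -1.36 in gbh-2 and -0.97 in cpr-5. At 0 h TIR1 replicate 1 was at 5.88 CPM in F08G2.5 (other TIR1 libraries 0.854 to 0.965), 13.9 in F35E12.9 (0.726 to 1.45) and 38.4 in mbf-1 (4.34 to 8.67). It was also the highest TIR1 library at 0 h in znf-598, C49G7.12, F56D2.5, pars-1 and sars-1. In cyp-14A5, F35D11.4, M01G12.9 and Y82E9BL.18 it was not. The part of that library in these changes was not tested.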

How the results depend on the processing

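The 134 genes higher and 36 lower at 12 h became 204 and 168 by FDR alone, and the lower count became 116 with a 1.5-fold limit, 65 with no count filter and 18 with the 12 h libraries alone. Leaving out replicates gave 68 to 140 higher genes and 19 to 41 lower genes. Higher genes were fewest without replicate 3 of both strains at 0, 12 and 24 h. The changes from 0 to 12 h among these genes (73 and 11) ranged from 25 to 76 and from 3 to 10. With replicate numbers as a block, 142 genes were higher and 35 lower, 127 and 32 of them shared. The same-numbered libraries correlated at -0.03 to 0.17 in their deviations over all genes tested, and differently numbered ones at -0.20 to 0.26. The main test did not pair them. Replicate 1 had its own pair of strains and was the highest library in 53% (TIR1) and 67.2% (Pol I-AID) of the 134 higher genes. A correlation over all genes therefore does not decide whether replicate 1 is paired. DESeq2 gave 160 and 47, and a term for outcrossing gave 149 and 39. The share of higher genes among those called was 73.0 to 85.3% except by FDR alone (54.8%) and with a 1.5-fold limit (62.8%). The cause of these differences was not tested. No named gene reversed in 21 alternatives, and 23 of the 67 named genes called at 12 h were kept in every alternative in which they could be fitted. 21 lost their call without TIR1 12 h replicate 4. Genes under about 1 CPM rest on few reads, and an absence of calls there says little.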
